A study of Mus musculus with 23 samples.

Results

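The genes described are 39 interferon-stimulated and guanylate-binding protein genes, listed by name for this description with earlier results of these data known. They were followed over 8 subclones of LLC, the Lewis lung carcinoma line, which grows as a transplantable lung tumour in mice. Of the 39, 37 were measured by a probe set that the annotation pairs with a single gene, out of 18193 genes so measured. Each gene was represented by the probe set with the highest mean over the 23 arrays. Isg15 and Tgtp1 had no probe set paired with 1 gene alone and were not analysed here. The 37 comprised 5 Gbp genes, 7 Ifit, Oas and Isg genes and genes of the roles named below.

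The subclones carry the numbers 2, 3, 6, 18, 19, 23, 24 and 28 and were obtained from the parental LLC line by limiting dilution. All were kept in medium with 10% serum and then held in serum-free expression medium for 24 h before RNA was taken, so every group shared that step. The labels name no interferon treatment. Subclone 6 had 2 arrays and the other 7 had 3 each, called biological replicates, and p-values here measure the spread between these samples. A subclone is a single clonal line, so a difference between 2 subclones describes those lines. Neither a parental sample nor a reference subclone is named, and each subclone was therefore compared with the other 7, averaged with equal weight.

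Type I interferons bind the receptor chains Ifnar1 and Ifnar2 and act through the kinases Jak1 and Tyk2 on factors that include Stat2 and Irf9 and recognise the interferon-stimulated response element (ISRE). Interferon gamma binds Ifngr1 and Ifngr2 and acts through Jak1 and Jak2 on genes with the gamma-activated sequence (GAS), among them the transcription factor gene Irf1. The Ifit, Oas and Isg genes encode antiviral proteins that are strongly induced by type I interferon, whereas the guanylate-binding proteins (GBPs) are large GTPases, best known as products induced by interferon gamma, that act on the membranes around intracellular pathogens.

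The stretches just before the transcription starts of 7 members are shown because they carry the elements through which both pathways are known to act and because these genes recur in the results. They come from RefSeq in build GRCm38.p6, run 5′ to 3′ on the gene's strand and end at the base before the annotated start. Capitals mark matches to the ISRE core, TTTCNNTTTC or GAAANNGAAA on the other strand, or to GAS, TTCNNNGAA, which reads the same on both strands. Where 2 matches overlap, the capitals run through both. Windows without a match, among them those of a further start of Gbp3 and of Irf1, are not shown.
Gbp2, chr3:142620493-142620662, plus strand: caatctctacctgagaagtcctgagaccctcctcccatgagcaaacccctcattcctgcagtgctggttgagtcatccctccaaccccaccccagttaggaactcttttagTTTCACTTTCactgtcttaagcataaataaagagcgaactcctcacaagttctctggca
Gbp3, chr3:142559874-142560043, plus strand: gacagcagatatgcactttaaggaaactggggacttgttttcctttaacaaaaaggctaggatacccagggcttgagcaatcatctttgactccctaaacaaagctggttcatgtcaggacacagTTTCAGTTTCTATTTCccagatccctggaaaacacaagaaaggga
Gbp7, chr3:142530166-142530335, plus strand: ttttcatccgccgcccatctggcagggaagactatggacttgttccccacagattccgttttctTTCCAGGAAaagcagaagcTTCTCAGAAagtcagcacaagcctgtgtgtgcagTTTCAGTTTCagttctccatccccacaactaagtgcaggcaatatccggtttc
Ifit1, chr19:34640719-34640888, plus strand: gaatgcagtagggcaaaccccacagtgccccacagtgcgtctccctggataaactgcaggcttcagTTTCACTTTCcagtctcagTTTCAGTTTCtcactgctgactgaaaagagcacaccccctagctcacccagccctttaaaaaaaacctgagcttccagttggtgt
Ifit3, chr19:34583359-34583528, plus strand: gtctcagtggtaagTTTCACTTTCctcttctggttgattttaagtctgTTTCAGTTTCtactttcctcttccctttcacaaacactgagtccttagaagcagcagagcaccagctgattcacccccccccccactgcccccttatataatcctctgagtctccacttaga
Irf1, chr11:53769844-53770013, plus strand: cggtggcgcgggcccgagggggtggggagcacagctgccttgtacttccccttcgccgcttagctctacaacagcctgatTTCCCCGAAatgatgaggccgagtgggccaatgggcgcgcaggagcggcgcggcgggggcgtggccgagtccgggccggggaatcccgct
Irgm1, chr11:48871421-48871590, minus strand: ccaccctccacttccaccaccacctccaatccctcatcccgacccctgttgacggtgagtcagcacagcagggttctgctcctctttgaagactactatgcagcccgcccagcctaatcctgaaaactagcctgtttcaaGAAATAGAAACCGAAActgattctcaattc

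The ISRE core began 59 bases before the start of Gbp2 and 53 before that of Gbp7. In Gbp3 a pair of overlapping matches began 45 and 39 bases before it. Gbp7 held GAS matches at 106 and 87 bases as well. Ifit1 held the ISRE core at 104 and 85 bases and Ifit3 at 156 and 122, Irf1 held a GAS match at 90, and Irgm1 held overlapping ISRE matches at 30 and 24. Both groups that are contrasted here therefore included genes with the ISRE core in this window. Over the 34 windows of 28 members the table listed, 10 (29.4%) held the ISRE core and 6 (17.6%) a GAS match, against 1.87% and 4.61% of 32851 promoters of the same length of 170 bases. Among them were 4 windows of 3 Gbp genes, 3 of them with the ISRE core, and 10 windows of the 7 Ifit, Oas and Isg genes, also 3 with it. Those 3 were of Ifit1, Ifit3 and Oas1a, while Ifit2, Isg20, Oasl1 and Oasl2 held no ISRE core. A GAS match lay in 1 of the 4 Gbp windows (Gbp7) and in 2 of the 10 others (Isg20 and Oas1a). Both groups thus included genes with GAS as well. A match describes letters in the reference and was not tested as a bound site.

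Levels are means of log2(intensity + 16) ± SD over the arrays of a subclone, and differences are on that log2 scale, on which the change of a dim gene comes out too small. An intensity of 0 would give 4, and 8 of the 37 genes had a mean over all arrays under 5.3, the level used as a filter on low values. Adjusted p-values come from limma with Benjamini-Hochberg adjustment over all 18193 genes. A gene is called higher or lower in a subclone where the adjusted p was under 0.05, whatever the size of the difference. Levels of different genes come from different probes and are not compared.

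Most of the 37 genes differed between subclones. The moderated F-test over the 8 means was passed by 29 of 37, against 61.8% of all genes tested. A range of subclone means of at least 1 log2 unit (2-fold) together with the F-test was reached by 15, or 40.5%, against 12.7% of all genes. The median range was 0.92 log2 units among the members and 0.49 over all genes. Members were chosen with earlier results of these data known, so shares above those of all genes are a description and not a test. The 15 were Gbp2, Gbp3, Gbp7, Gbp8, Irgm1, Irf1, Ifit1, Ifit2, Isg20, Usp18, Dtx3l, Parp14, Bst2, Ifitm1 and Slfn2. A further 14 passed the F-test with a smaller range, and 8 did not pass it. Those 8 were Irf7, Stat2, Oas1a, Oasl1, Oasl2, Mx1, Mx2 and Dhx58.

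Subclone 19 stood at the upper end for the largest number of members. In it 22 of the 37 were higher and 3 lower, against 24.2% and 17.7% of all genes, and the median difference was 0.22 log2 units, with 0.01 over all genes. Without the Gbp genes, 17 of 32 were higher and 3 lower, with a median of 0.17. The highest mean of 13 of the 37 genes (35.1%) lay in subclone 19, which held the highest mean of 15.2% of all genes. Subclone 3 stood at the other end, with 2 members higher and 19 lower, against 19.4% and 18.6% of all genes, a median of -0.18, and the lowest mean of 12 of the 37 (32.4%), against 12.4% of all genes. In bulk RNA, fewer cells with a transcript and less transcript per cell cannot be told apart.

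The other 6 subclones lay between these. In subclone 24, 15 members were higher and 5 lower, against 15.2% and 17.1% of all genes. Subclone 23 had 12 higher and 7 lower (background 20.2% and 17.4%), and subclone 18 had 10 higher and 11 lower (background 21.5% and 21.6%). Subclone 2 had 8 higher and 14 lower (background 15.4% and 20.5%), subclone 28 had 7 higher and 13 lower (background 19.2% and 18.2%), and subclone 6 had 3 higher and 12 lower (background 13.8% and 10.1%). The medians over the members in these 6 ran from -0.14 in subclone 6 to 0.04 in subclone 24. Subclone 19 had 1 lower member in place of 3 without its replicate 2, and again 1 without its replicate 3. Without replicate 2 of subclone 23, 4 members were lower there in place of 7.

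**Figure D1:**
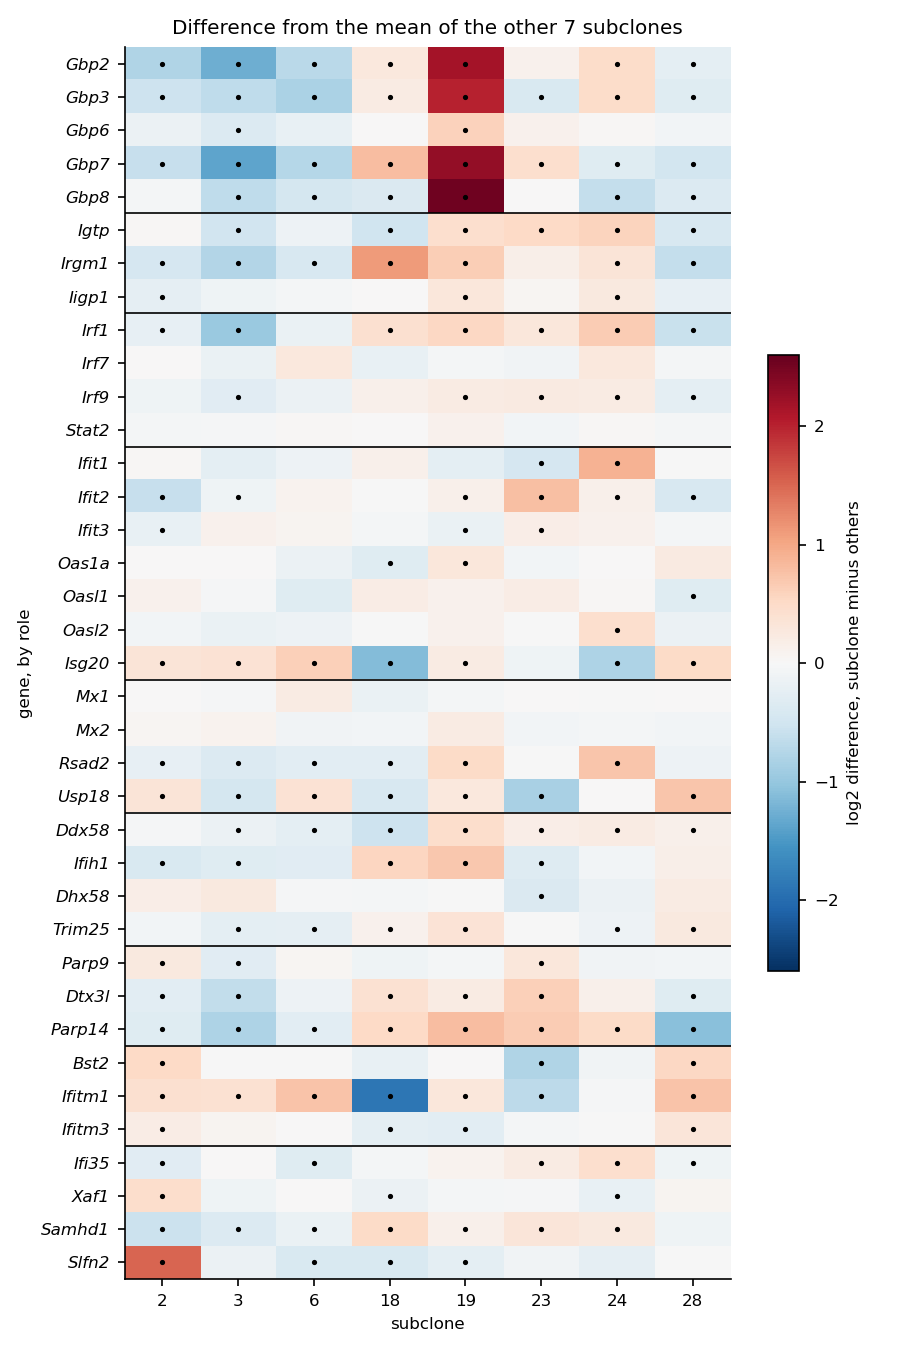
Log2 difference of each subclone (columns) from the mean of the other 7, for the 37 measured genes (rows, grouped by role), with red for higher, blue for lower and a dot where the adjusted p was under 0.05. The deepest red lies in 4 of the 5 Gbp genes, in subclone 19, and the deepest single blue cell is Ifitm1 in subclone 18, at -1.88.

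All 5 Gbp genes measured were higher in subclone 19 and lower in subclone 3, against 24.2% and 18.6% of all genes. The median difference was 2.17 log2 units in subclone 19 and -0.66 in subclone 3. Subclone 19 held the highest mean of each, and subclone 3 the lowest mean of Gbp2, Gbp6 and Gbp7. All 5 passed the F-test, as did 61.8% of all genes. The high level in subclone 19 enters the mean of the other 7 for every other subclone, so each was also compared with the 6 subclones other than 19, an alternative chosen after seeing the data. All 5 genes were lower in subclone 3 in that comparison too (17.5% of all genes lower, 19.3% higher).

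In subclone 28, 4 of the 5 were lower and none higher against the other 7. Against the 6 without subclone 19 none was called in either direction (limma, 0 with an unadjusted p under 0.05), where 17.8% of all genes were lower and 19.7% higher. Members lower in subclone 28 then numbered 7 in place of 13. Subclone 6 had 4 Gbp genes lower against the other 7 and 3 against the 6 (8.68% of all genes lower, 13.4% higher), with none higher in either. Subclone 2 had 3 lower in both, and 1 higher against the 6 (19.1% lower, 15.3% higher). Subclone 18 had 3 higher in both, with 1 lower against the other 7 and none against the 6 (22.2% higher, 21.6% lower). Subclone 23 had 1 in each direction against the other 7, but 4 higher and none lower against the 6 (21.0% higher, 17.7% lower). Subclone 24 had 2 in each direction against the other 7, and 2 higher and 1 lower against the 6 (16.1% higher, 16.9% lower). The counts of subclones 23 and 28 thus changed most with subclone 19 in or out of the comparison. Calls of Gbp8 outside subclone 19 are between levels under the filter level of 5.3. The means of Gbp3 in subclones 2, 3, 6, 23 and 28 also lay under it.

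Gbp2 gave 6.16, 6.14 and 6.26 on the arrays of subclone 2, 5.47, 6.05 and 5.74 in subclone 3 and 6.35 and 6.17 in subclone 6. It gave 7.12, 7.15 and 7.07 in subclone 18, 8.82, 8.72 and 8.79 in subclone 19 and 7.01, 7.02 and 6.88 in subclone 23. Subclone 24 gave 7.17, 7.41 and 7.29, and subclone 28 gave 6.72, 6.63 and 6.59. All 3 arrays of subclone 19 lay above every other array, by more than 1 log2 unit, and those of subclone 3 below every other. The range of means was 3.02 log2 units, or 8.11-fold (adjusted p = 5.13e-13, limma F-test). Subclone 19 exceeded the mean of the other 7 by 2.17 ± 0.077 (SE; adjusted p = 1.22e-13), and subclone 3 lay at -1.28 from it (adjusted p = 2.98e-10). The next level below subclone 19 was that of subclone 24, which it exceeded by 1.49 ± 0.10 (SE; adjusted p = 1.27e-09), in a pair in which 35.2% of all genes differed.

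Gbp7 read 5.88, 6.15 and 6.03 in subclone 2, 5.50, 5.14 and 5.41 in subclone 3 and 6.0 and 5.80 in subclone 6. Its arrays of subclone 18 gave 7.21, 7.29 and 7.29, those of subclone 19 gave 8.56, 8.48 and 8.63 and those of subclone 23 gave 7.12, 6.85 and 6.81. In subclone 24 they gave 6.29, 6.34 and 6.19, and subclone 28 gave 6.36, 5.98 and 6.09. As for Gbp2, subclone 19 was highest and subclone 3 lowest without overlap, but subclones 18 and 23 came next after subclone 19, and subclone 24 stood after these. The range was 3.21 log2 units, or 9.22-fold (adjusted p = 4.09e-13, limma F-test), the widest of the 37 genes with 16 added to the intensities. With 1 added, Gbp8 (4.55) and Gbp3 (3.87) had wider ranges than Gbp7 (3.81). Subclone 19 lay 2.29 ± 0.082 above the other 7 (adjusted p = 1.48e-13) and 1.29 above subclone 18 (adjusted p = 1.65e-08), a pair that differed in 38.7% of all genes. Subclone 18 was itself higher, by 0.81 log2 units.

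Gbp3 was near the floor in several subclones. Arrays of subclone 2 read 4.53, 4.92 and 4.75, those of subclone 3 gave 4.59, 4.75 and 4.57 and those of subclone 6 gave 4.54 and 4.45. It reached 5.44, 5.40 and 5.34 in subclone 18, 7.09, 6.90 and 6.88 in subclone 19 and 4.82, 4.95 and 4.81 in subclone 23. The arrays of subclone 24 held 5.81, 5.69 and 5.36 and those of subclone 28 held 4.93, 4.97 and 4.90. Subclone 19 was above all other arrays, and subclones 24 and 18 were above the remaining 5. The F-test was passed (adjusted p = 4.52e-12, limma). The mean of subclone 19 stood for an intensity of 109, at least 4.64-fold above the filter level of 23.4 under which 5 subclone means lay. On the scale with 16 added, subclone 19 differed from the other 7 by 2.01 ± 0.077 (adjusted p = 3.98e-13). It exceeded subclone 24 by 1.34 (adjusted p = 5.61e-09).

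Gbp8 was high in subclone 19 and low elsewhere. Its arrays read 7.19, 7.02 and 7.20 there, and 4.78, 5.01 and 4.86 in subclone 2, 4.36, 4.37 and 4.34 in subclone 3 and 4.44 and 4.61 in subclone 6. Subclone 18 had 4.46, 4.62 and 4.71 and subclone 23 had 4.87, 4.72 and 5.23. Subclone 24 had 4.36, 4.16 and 4.63 and subclone 28 had 4.60, 4.69 and 4.60. All arrays outside subclone 19 stayed between 4.16 and 5.23, under the filter level of 5.3, and are not ranked here. The mean of subclone 19 stood for an intensity of 125, at least 5.34-fold above the filter level of 23.4. The F-test was passed (adjusted p = 5.49e-12, limma), and on the scale with 16 added subclone 19 differed from the other 7 by 2.52 ± 0.091 (adjusted p = 1.48e-13).

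Gbp6 varied least of the 5. Its arrays read 6.22, 6.37 and 6.52 in subclone 2, 6.15, 6.11 and 6.34 in subclone 3 and 6.34 and 6.31 in subclone 6. Subclones 18, 19 and 23 gave 6.55, 6.42 and 6.54, then 7.08, 7.08 and 6.95, then 6.69, 6.38 and 6.74. Subclone 24 gave 6.50, 6.58 and 6.52 and subclone 28 gave 6.53, 6.40 and 6.39. Subclone 19 again lay above all other arrays, while the remaining subclones ran into one another. The range was 0.84 log2 units (adjusted p = 6.98e-06, limma F-test), with subclone 19 higher by 0.61 ± 0.068 (adjusted p = 5.93e-07) and above subclone 23 by 0.43 (adjusted p = 7.58e-04), a pair in which 35.6% of all genes differed.

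**Figure D2:**
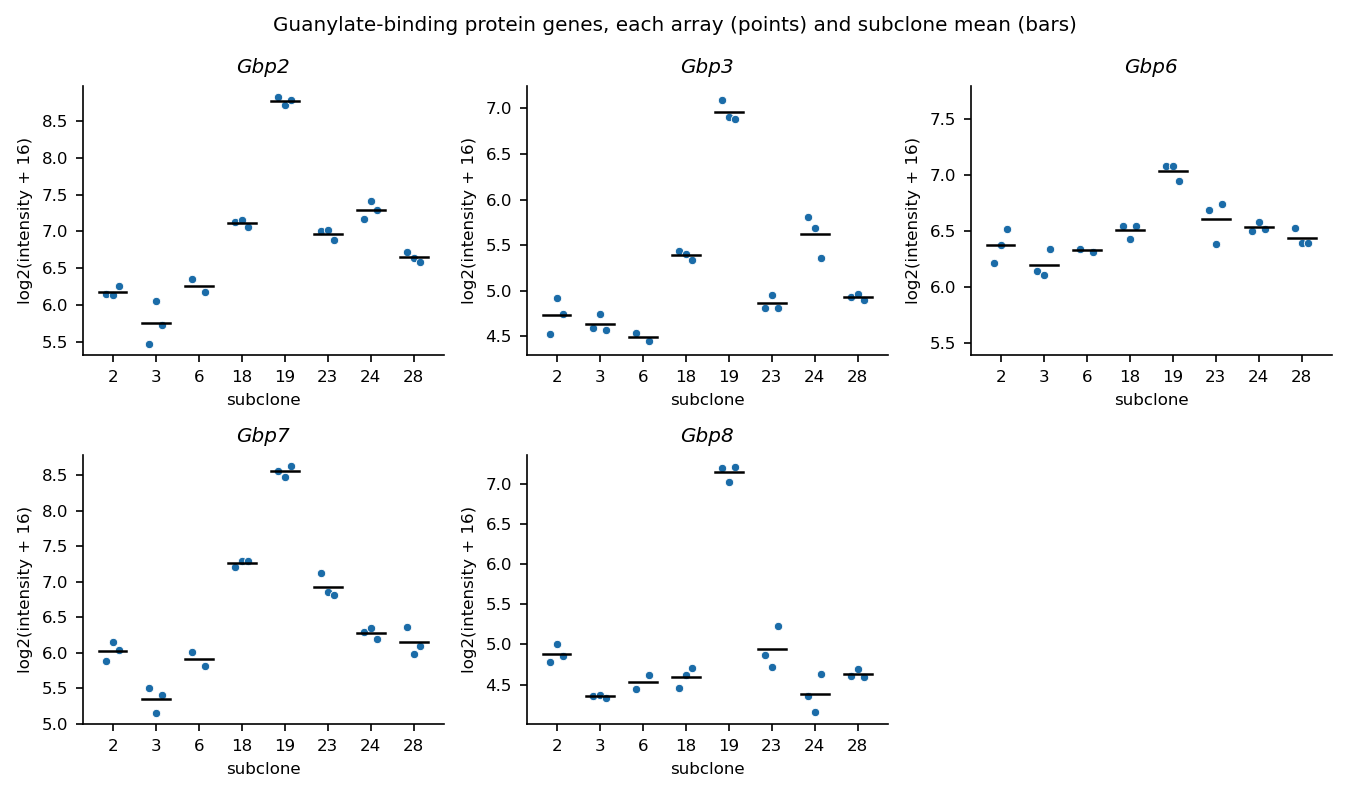
Level of each Gbp gene, log2(intensity + 16), on every array (points) and as subclone mean (bars), against the subclone number, with a scale of its own in each panel. In every panel the 3 arrays of subclone 19 lie above all others, from 6.88 to 7.09 for Gbp3 and from 8.72 to 8.82 for Gbp2.

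Other probe sets gave the same subclone as highest. The second probe set of Gbp2 had a range of 3.0 log2 units and a correlation of r = 0.99 with the first over the 8 subclone means. That matters because the name of the first carries the array maker's suffix for probes that may also bind related transcripts, and Gbp genes are close relatives. The second of Gbp7 had a range of 1.46 (r = 0.96). The second of Gbp6 had a range of 2.56 (r = 0.79), from 4.56 in subclone 3 to 7.11 in subclone 19, so the extent of the Gbp6 difference depended on the probe set. Over the 8 subclone means the 5 Gbp genes followed one another, with r from 0.82 to 0.98 and a median of 0.90 in 10 pairs of genes, which describes 8 points, 1 of them (subclone 19) far from the rest. Gbp2, Gbp3 and Gbp7 lie together on chromosome 3, whose 596 genes had a median difference of 0.23 in subclone 19. Gbp6 and Gbp8 lie on chromosome 5, with a median of 0.10 over 783 genes there. The part of these shifts in the Gbp differences was not tested.

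The Ifit, Oas and Isg genes did not move as a group. Of the 7 measured, 4 (57.1%) passed the F-test (Ifit1, Ifit2, Ifit3 and Isg20), against 61.8% of all genes. A range of 1 log2 unit was reached by 3 (42.9%), against 12.7% of all genes. The subclone with the highest mean was a different one for most of them. It was subclone 24 for Ifit1 and Oasl2, subclone 23 for Ifit2 and Ifit3, subclone 6 for Isg20, subclone 19 for Oas1a and subclone 18 for Oasl1. In subclone 19, 3 of the 7 were higher and 1 lower, against 24.2% and 17.7% of all genes, with a median difference of 0.12. In subclone 3, 1 was higher and 1 lower, against 19.4% and 18.6% of all genes, with a median of -0.04. The correlations between these genes over the 8 means ran from -0.62 to 0.74 with a median of -0.10 in 21 pairs.

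Ifit2, whose product binds foreign RNA and is linked to cell death, gave 8.53, 8.36 and 8.47 in subclone 2, 8.89, 8.84 and 8.91 in subclone 3 and 9.05 and 9.09 in subclone 6. Values in subclones 18, 19 and 23 were 8.90, 8.97 and 9.03, then 9.15, 9.08 and 9.09, then 9.65, 9.72 and 9.64. The arrays of subclone 24 gave 9.14, 9.05 and 9.09 and those of subclone 28 gave 8.60, 8.64 and 8.60. Subclone 23 stood above every other array, and subclone 2 below every other. The range was 1.22 log2 units (adjusted p = 4.01e-12, limma F-test). Subclone 23 was higher by 0.79 ± 0.036 (adjusted p = 4.86e-12) and exceeded subclone 19, the next, by 0.57 (adjusted p = 1.65e-08).

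Ifit1 and Ifit3 were set apart less clearly. Ifit1 read 5.61, 5.79 and 5.36 in subclone 2, 5.36, 5.28 and 5.37 in subclone 3, 5.36 and 5.53 in subclone 6 and 5.75, 5.58 and 5.68 in subclone 18. It read 5.26, 5.51 and 5.23 in subclone 19, 5.46, 4.55 and 5.50 in subclone 23, 6.15, 6.44 and 6.41 in subclone 24 and 5.83, 5.28 and 5.50 in subclone 28. Only in subclone 24 did all arrays exceed those of the other subclones. The difference there was 0.89 ± 0.15 (adjusted p = 9.1e-05), and the F-test was passed at an adjusted p of 0.00125 with a range of 1.16. Without subclone 24 the F-test of Ifit1 was not passed (adjusted p = 0.321). One array of subclone 23, at 4.55, lay well below the rest of that subclone. Ifit3 stayed between 5.91 and 6.44, with a range of 0.32 (adjusted p = 0.0142, limma F-test), and missed the threshold without subclone 2 (adjusted p = 0.0693) and without subclone 19 (adjusted p = 0.0506).

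Isg20, which encodes an exonuclease that degrades single-stranded RNA, was lower in subclones 18 and 24. Its arrays read 9.16, 9.13 and 9.14 in subclone 2, 9.06, 9.18 and 9.25 in subclone 3 and 9.32 and 9.44 in subclone 6. They read 7.88, 7.76 and 7.93 in subclone 18, 8.98, 9.02 and 9.08 in subclone 19 and 8.80, 8.69 and 8.76 in subclone 23. Subclone 24 gave 8.05, 8.19 and 8.17 and subclone 28 gave 9.27, 9.28 and 9.28. Subclones 18 and 24 lay below all others without overlap, and subclone 18 below subclone 24. The range was 1.52 log2 units (adjusted p = 1.86e-13, limma F-test), with differences of -1.13 ± 0.043 in subclone 18 (adjusted p = 1.36e-13) and -0.80 in subclone 24.

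The 3 genes of the Oas family, whose enzymes activate RNase L or resemble those that do, did not pass the F-test. Oas1a had a range of 0.53 log2 units (adjusted p = 0.067, limma F-test), Oasl1 of 0.44 (adjusted p = 0.10) and Oasl2 of 0.55 (adjusted p = 0.189). Oas1a passed the threshold without subclone 23 (adjusted p = 0.0129) and Oasl2 without subclone 2 (adjusted p = 0.0377). Oasl2 was near the floor, with no subclone mean above 5.28.

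**Figure D3:**
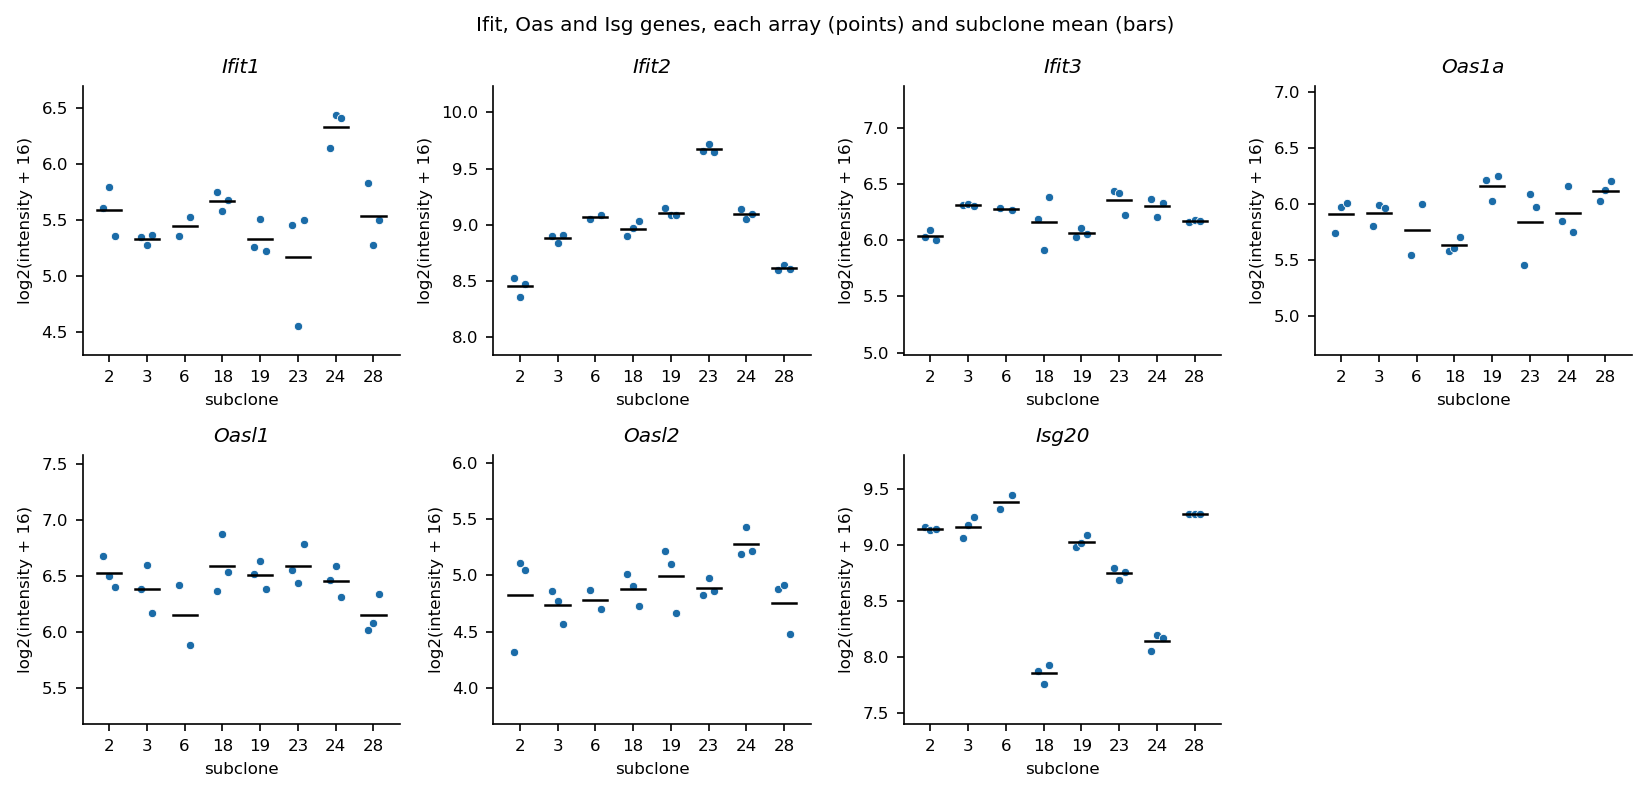
Level of each Ifit, Oas and Isg gene, log2(intensity + 16), on every array (points) and as subclone mean (bars), against the subclone number, with a scale of its own in each panel. No subclone is highest throughout, and Isg20 is lowest in subclone 18, at 7.76 to 7.93.

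Set against each other, the groups separated most in subclone 19. Averaged over genes on each array, the difference from the other 7 subclones was 1.92 log2 units for the Gbp genes and 0.06 for the Ifit, Oas and Isg genes there, so the first minus the second was 1.86 ± 0.08 (SD, n = 3). In subclone 3 the Gbp mean was -0.86 and the other -0.01, a gap of -0.85 ± 0.04 (SD, n = 3). Subclone 6 had a gap of -0.60 ± 0.05 (SD, n = 2), subclone 2 one of -0.38 ± 0.06 and subclone 28 one of -0.26 ± 0.04 (SD, n = 3 each). In subclone 18 the Gbp mean was 0.18 and the other -0.17, with a gap of 0.36 ± 0.02 (SD, n = 3). The gap was small in subclone 23, at -0.02 ± 0.05, and in subclone 24, at -0.11 ± 0.06. With subclone 19 left out of the mean of the others, the gap was -0.60 in subclone 3, -0.34 in subclone 6, -0.11 in subclone 2 and 0.63 in subclone 18. It was then 0.0043 ± 0.04 (SD, n = 3) in subclone 28, so no gap was seen there, and 0.25 in subclone 23 and 0.16 in subclone 24, where the sign turned. Over the 8 subclones the means of the Ifit, Oas and Isg genes ran from -0.17 to 0.12, and those of the Gbp genes from -0.86 to 1.92.

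That gap is a score over chosen genes and was not given a test. With 1 in place of 16 added to the intensities it was 2.39 in subclone 19, and with 64 added it was 1.22. When genes with a mean under 5.3 were left out, which removes Gbp3, Gbp8 and Oasl2, it was 1.63. Across the 8 subclone means, the 35 correlations between a Gbp gene and an Ifit, Oas or Isg gene ran from -0.56 to 0.59 with a median of 0.18.

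**Figure D4:**
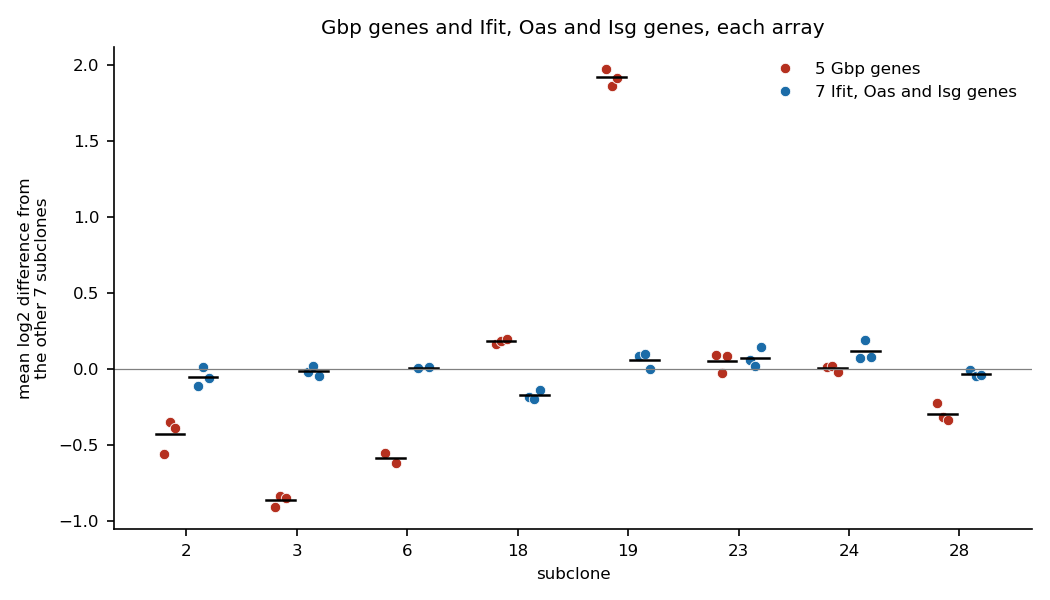
Mean log2 difference from the other 7 subclones over the 5 Gbp genes (red) and the 7 Ifit, Oas and Isg genes (blue), for each array (points) and subclone (bars), against the subclone number. The red means run from -0.86 in subclone 3 to 1.92 in subclone 19, while the blue means run from -0.17 to 0.12.

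Irf1, the transcription factor gene downstream of interferon gamma, split the subclones into 4 and 4. It read 9.61, 9.60 and 9.69 in subclone 2, 8.83, 9.20 and 8.89 in subclone 3, 9.70 and 9.65 in subclone 6 and 9.29, 9.31 and 9.32 in subclone 28. Levels were 10.18, 10.18 and 10.16 in subclone 18, 10.36, 10.24 and 10.29 in subclone 19, 10.03, 10.09 and 10.12 in subclone 23 and 10.46, 10.35 and 10.40 in subclone 24. Every array of the latter 4 lay above every array of the former 4. The range was 1.43 log2 units (adjusted p = 7.66e-12, limma F-test). Irf1 was lowest in subclone 3, with a difference of -0.96 ± 0.051 (adjusted p = 6.41e-11), and highest in subclone 24, by 0.67. At the step in the order, subclone 23 exceeded subclone 6 by 0.41 (adjusted p = 2.74e-04), a pair in which 35.5% of all genes differed.

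The remaining transcription factors had smaller ranges. Irf9, the DNA-binding part of the type I interferon complex, had a range of 0.47 log2 units (adjusted p = 8.5e-05, limma F-test) and was higher in subclones 19, 23 and 24 and lower in subclones 3 and 28. Stat2, its partner, had a range of 0.16 (adjusted p = 0.933), and Irf7, which amplifies type I interferon production, one of 0.40 at levels near the floor (adjusted p = 0.135). Correlations with the mean of the Gbp genes over the 8 subclones were 0.68 for Irf1, 0.69 for Irf9, 0.74 for Stat2 and -0.12 for Irf7. Over the 7 subclones other than 19 they were 0.86, 0.87, 0.13 and -0.073, in the same order. These values describe 8 or 7 points.

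The immunity-related GTPases, smaller relatives that cooperate with GBPs at pathogen vacuoles, were all higher in subclones 19 and 24. Of all genes, 24.2% and 15.2% were higher there. Irgm1, which regulates the others of its family, gave 7.23, 7.35 and 7.41 in subclone 2, 6.93, 7.25 and 6.99 in subclone 3, 7.48 and 7.24 in subclone 6 and 7.17, 7.21 and 7.18 in subclone 28. It gave 8.62, 8.83 and 8.61 in subclone 18, 8.38, 8.30 and 8.16 in subclone 19, 7.88, 7.92 and 7.79 in subclone 23 and 7.91, 8.14 and 7.97 in subclone 24. As for Irf1, the latter 4 lay above the former 4 without overlap, but here subclone 18 was highest. The range was 1.63 log2 units (adjusted p = 7.42e-11, limma F-test). Subclone 18 was higher by 1.10 ± 0.069 (adjusted p = 1.77e-10) and exceeded subclone 19 by 0.41 (adjusted p = 1.27e-03). Subclone 23 exceeded subclone 6 by 0.51 (adjusted p = 5.76e-04).

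Igtp, also known as Irgm3, was higher in subclones 19, 23 and 24, by 0.43, 0.51 and 0.58, and lower in subclones 3, 18 and 28. In subclone 18 it lay at -0.51 (adjusted p = 1.86e-06, limma), where Irgm1 was highest, so these 2 genes of one family parted there. Its range was 0.95 log2 units (adjusted p = 3.39e-09, limma F-test). Iigp1 had a range of 0.45 (adjusted p = 0.005) and was higher in subclones 19 and 24, by 0.29 and 0.26. A second, dimmer probe set of Iigp1 followed the first with r = 0.59. That one gave 5.0 in subclone 19 and 4.74 in subclone 24, with 4.77 over all arrays. In subclone 19 the median difference of the 3 genes was 0.43, against 2.17 for the 5 Gbp genes.

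Parp14 and Dtx3l, an ADP-ribosyltransferase and a ubiquitin ligase that work beside Parp9 in the interferon response, shared much of the Irf1 order. Parp14 read 6.78, 6.69 and 6.66 in subclone 2, 6.33, 6.12 and 6.40 in subclone 3, 6.80 and 6.69 in subclone 6 and 6.02, 5.98 and 6.13 in subclone 28. It read 7.35, 7.43 and 7.56 in subclone 18, 7.72, 7.71 and 7.62 in subclone 19, 7.63, 7.47 and 7.57 in subclone 23 and 7.47, 7.37 and 7.45 in subclone 24. The groups of 4 did not overlap, and subclone 28 had the lowest mean, though its arrays overlapped those of subclone 3 (6.13 against 6.12). The range was 1.64 log2 units (adjusted p = 9.63e-13, limma F-test), with -1.08 ± 0.055 in subclone 28 (adjusted p = 2.33e-11). Subclone 24 exceeded subclone 6 by 0.69 (adjusted p = 4.04e-06), a pair that differed in 26.4% of all genes. A second probe set of Parp14 followed the first poorly (r = 0.26 over the 8 means).

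Dtx3l gave 8.24, 8.26 and 8.16 in subclone 2, 7.65, 8.06 and 7.95 in subclone 3, 8.39 and 8.30 in subclone 6 and 8.13, 8.21 and 8.19 in subclone 28. Subclones 18, 19, 23 and 24 gave 8.76, 8.72 and 8.90, then 8.66, 8.73 and 8.50, then 9.01, 9.05 and 8.91, then 8.54, 8.66 and 8.52. Its means ran from subclone 3, the lowest, to subclone 23, the highest, with every array of subclones 18, 19, 23 and 24 above the rest. The range was 1.10 log2 units (adjusted p = 2.05e-08, limma F-test). Dtx3l was higher in subclone 23 by 0.61 and differed by -0.64 in subclone 3. Parp9, which pairs with Dtx3l, had a range of 0.51 (adjusted p = 5.74e-05) and was higher in subclones 2 and 23 and lower in subclone 3.

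The grouping of subclones 18, 19, 23 and 24 against 2, 3, 6 and 28 matches the order in which the samples are listed. In Irf1, Irgm1, Parp14 and Dtx3l it was noticed in the values and is given as a description. Of the 37 members 7 followed it without overlap of any arrays, these 4 with Gbp2, Irf9 and Samhd1. Irf9 did so narrowly, with 6.43 or more in the upper subclones and up to 6.40 in the lower. How many of all genes do so was not counted, so the 7 is not read as a result about the members. For Samhd1 and Parp14 this holds for the probe set used. Other probe sets of Samhd1 had correlations from -0.74 to 0.76 with it over the subclone means, and that of Parp14 had 0.26. Irf1 and Irgm1 lie on chromosome 11, Parp14 and Dtx3l on chromosome 16, Gbp2 on chromosome 3, Irf9 on chromosome 14 and Samhd1 on chromosome 2.

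Ifitm1, a membrane protein that hinders virus entry, was lower in subclones 18 and 23. Its arrays gave 11.90, 11.91 and 11.96 in subclone 2, 11.90, 11.96 and 11.85 in subclone 3, 12.23 and 12.21 in subclone 6 and 12.22, 12.20 and 12.21 in subclone 28. They gave 9.95, 9.90 and 9.91 in subclone 18, 11.81, 11.82 and 11.85 in subclone 19, 10.95, 10.95 and 11.04 in subclone 23 and 11.57, 11.50 and 11.56 in subclone 24. Subclone 18 was lowest, then subclone 23, then subclone 24, none of them overlapping. The range was 2.30 log2 units, or 4.93-fold (adjusted p = 6.41e-18, limma F-test), the widest outside the Gbp genes. Subclone 18 differed by -1.88 ± 0.029 (adjusted p = 3.81e-19) and lay 1.06 below subclone 23 (adjusted p = 1.24e-13), a pair in which 36.8% of all genes differed. Ifitm3, its neighbour on chromosome 7 with a similar role, had a range of 0.51 (adjusted p = 6.41e-09), lower in subclones 18 and 19 and higher in subclones 2 and 28.

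Bst2, or tetherin, which holds budding virus at the cell surface, gave 10.01, 10.02 and 10.13 in subclone 2, 10.10, 10.02 and 10.09 in subclone 28 and 9.06, 8.95 and 8.71 in subclone 23. The other subclones gave 9.69, 9.76 and 9.33 (subclone 3), 9.66 and 9.53 (subclone 6) and 9.43, 9.53 and 9.33 (subclone 18). Subclone 19 gave 9.71, 9.61 and 9.50 and subclone 24 gave 9.40, 9.55 and 9.62. Subclones 2 and 28 lay above all others and subclone 23 below all others. The range was 1.17 log2 units (adjusted p = 2.31e-07, limma F-test), with subclone 23 at -0.79.

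Usp18, a protease that removes Isg15 from proteins and restrains type I interferon signalling, was highest in subclone 28 and lowest in subclone 23. It read 6.02, 5.83 and 5.72 in subclone 28, 4.54, 4.33 and 4.61 in subclone 23, 4.98, 4.68 and 4.82 in subclone 3 and 4.89, 4.62 and 5.09 in subclone 18. It read 5.60, 5.35 and 5.60 in subclone 2, 5.62 and 5.51 in subclone 6, 5.62, 5.42 and 5.36 in subclone 19 and 5.31, 5.20 and 5.19 in subclone 24. The arrays of subclone 28 exceeded all others and those of subclone 23 fell below all others, at levels near the floor. The range was 1.36 log2 units (adjusted p = 6.66e-08, limma F-test). Subclone 28 was higher by 0.72 and subclone 23 differed by -0.84.

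Slfn2, a member of the Schlafen family, was high in subclone 2. Its arrays gave 7.80, 7.86 and 8.04 there, 6.46, 6.49 and 6.35 in subclone 3, 6.25 and 6.19 in subclone 6 and 6.07, 6.18 and 6.41 in subclone 18. They gave 6.58, 6.13 and 6.34 in subclone 19, 6.59, 6.23 and 6.66 in subclone 23, 6.17, 6.57 and 6.37 in subclone 24 and 6.50, 6.55 and 6.62 in subclone 28. Outside subclone 2 the arrays ran into one another. The range was 1.68 log2 units (adjusted p = 1.56e-08, limma F-test). Subclone 2 was higher by 1.52 ± 0.096 (adjusted p = 4.59e-10) and exceeded subclone 28, the next, by 1.35 (adjusted p = 1.28e-07), a pair that differed in 33.4% of all genes. Without subclone 2 the F-test of Slfn2 was not passed (adjusted p = 0.235).

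**Figure D5:**
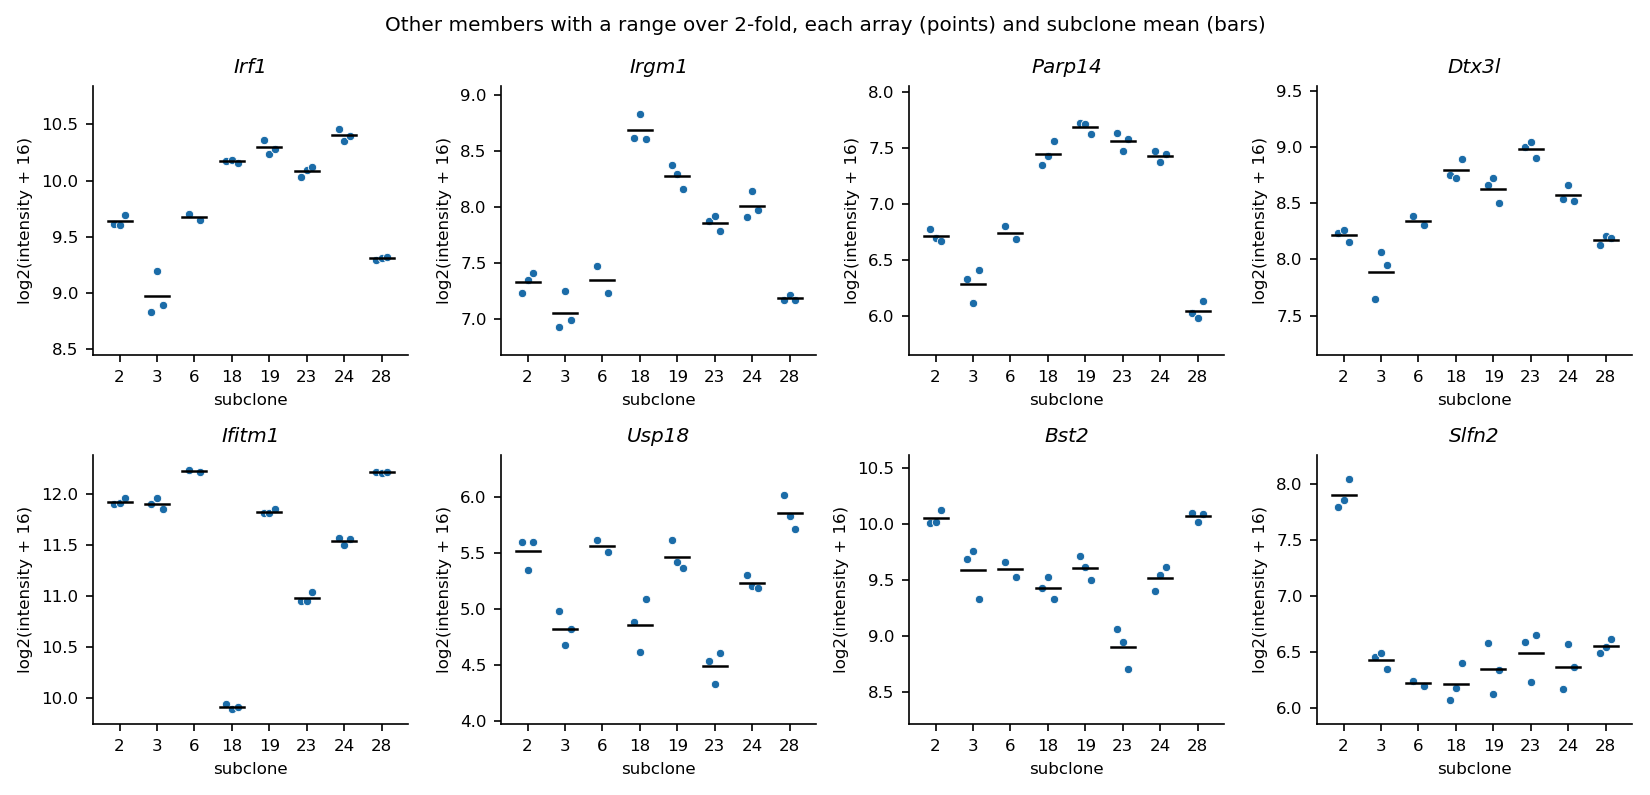
Level of the 8 other genes that spanned 1 log2 unit or more, outside the Gbp, Ifit, Oas and Isg genes, log2(intensity + 16), on every array (points) and as subclone mean (bars), against the subclone number, with a scale of its own in each panel. Irf1, Irgm1, Parp14 and Dtx3l are higher in subclones 18, 19, 23 and 24 than in the rest, while Ifitm1 is lowest in subclone 18 (9.90 to 9.95) and Slfn2 stands out in subclone 2 (7.80 to 8.04).

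Among the antiviral effectors and RNA sensors, Rsad2 (viperin, which makes a chain-terminating nucleotide) shared a high level in subclones 24 and 19. It was higher there by 0.73 and 0.51 log2 units and had a range of 0.94 (adjusted p = 1.63e-07, limma F-test). A further probe set of Rsad2 had r = 0.99 with it and a range of 1.5. The last followed it poorly, with r = 0.23 and a range of 0.21. Mx1 and Mx2, GTPases that block viral replication, did not pass the test, and single arrays of Mx2 lay between 4.09 and 4.90. Of the RNA sensors, Ddx58 (RIG-I) was higher in subclone 19 by 0.45 and lower in subclone 18, at -0.54. Ifih1 (MDA5) was higher in subclones 19 and 18, by 0.69 and 0.56, so the pair differed in direction in subclone 18. The mean of Ifih1 over all arrays, 5.05, lay under the filter level of 5.3, as did that of Dhx58, 4.95. Dhx58, a regulator of both, did not pass the F-test, and Trim25, which activates RIG-I, was higher in subclone 19 by 0.35 with a range of 0.54.

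Of the remaining members, Samhd1, which depletes nucleotides, had a range of 0.92 log2 units (adjusted p = 2.77e-09, limma F-test). It was highest in subclone 18 and lowest in subclone 2, but its 4 other probe sets had correlations from -0.74 to 0.76 with it. Ifi35 was higher in subclone 24 by 0.44 (range 0.66, adjusted p = 5.71e-08). Xaf1, which promotes apoptosis, was higher in subclone 2 by 0.45 (range 0.56, adjusted p = 3.85e-06). Subclone 2 thus held the highest levels of Xaf1 and Slfn2.

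Other genes of the pathway were counted from lists of ligands, receptors, kinases, brakes, sensors and further targets. Of 5 interferon ligand genes measured, 1 passed the F-test, against 61.8% of all genes. It was Ifnb1, between 4.78 and 5.45 on single arrays, and Ifng lay between 4.09 and 5.0. Ifna2 and Ifna4 lay between 4.09 and 4.51, near the floor of the array, whereas Ifna1 lay higher, between 4.98 and 5.94. Of 6 receptor genes, 5 passed the F-test, against 61.8% of all genes. The means of 3, among them both chains for interferon gamma, also spanned 1 log2 unit or more, against 12.7% of all genes. Ifngr2 was highest in subclone 28 (9.13) and lowest in subclone 24 (7.86), and in subclone 19 stood at 7.96. Ifngr1 was highest in subclone 2 (10.26) and lowest in subclone 23 (9.16). Ifnar2 had its top level in subclones 2 and 28 (10.45 in each) and its lowest in subclone 24 (9.34). In subclone 19, where the Gbp genes were highest, 3 of the 6 receptor genes were lower and none higher, against 17.7% and 24.2% of all genes.

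Of all genes tested, 61.8% passed the F-test and 12.7% also spanned 1 log2 unit or more. Those are the shares to set beside the counts of these lists. Of 6 Janus kinase and STAT genes, 5 passed it, with a median range of 0.59 log2 units (0.49 over all genes), none with 1 log2 unit, and 5 lower in subclone 18, as were 21.6% of all genes. Of 7 genes that brake interferon signalling, 6 passed the F-test, and Usp18 had a range above 1. Of 14 sensors and adaptors, 12 passed, and 3 had a range above 1. Tlr4, the receptor for lipopolysaccharide, was highest in subclone 2 and lowest in subclone 18 (range 1.45), and Ikbke, a kinase that acts on interferon regulatory factors, was highest in subclone 28 and lowest in subclone 18 (range 1.41). Tlr3, which detects double-stranded RNA, was highest in subclone 19 (7.08) and lowest in subclone 28 (5.71). Of 2 relatives of the GTPases outside the members, Irgm2 was highest in subclone 19 (7.11) and lowest in subclone 3 (6.0), as for Gbp2, Gbp6 and Gbp7. Ifi47 was highest in subclone 18 (5.93), as Irgm1 was.

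Among 32 further interferon-stimulated genes, 24 passed the F-test and 9 spanned 1 log2 unit or more, against 61.8% and 12.7% of all genes. In subclone 19, 14 of them were higher and 6 lower, with a median of 0.13, against 24.2% and 17.7% of all genes. In subclone 3, 6 were higher and 14 lower, with a median of -0.11, against 19.4% and 18.6%. Parp12 was highest in subclone 19 (8.83) and lowest in subclone 18 (7.39). Trim30a was high in subclones 19, 18 and 28 (7.60, 7.59 and 7.43) and low in subclones 24, 6 and 2 (5.36 to 5.46). Cxcl10, a chemokine gene induced by interferon gamma, reached 6.49 in subclone 24 and 6.35 in subclone 19, against 5.15 in subclone 28. The chemokine gene Ccl5 had the widest range, 4.44 log2 units, from 5.11 in subclone 23 to 9.56 in subclone 24. Ifi204, a DNA sensor gene, was lower in subclone 18 by 2.47 log2 units. Epsti1 was lowest there too, Nmi was lowest in subclone 28 and Lgals3bp highest in it, and Lgals9 was highest in subclone 18.

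Genes of class I antigen presentation, which interferon gamma also induces, all passed the F-test (12 of 12, against 61.8% of all genes). Of these, 6 were higher and 3 lower in subclone 19, where 24.2% and 17.7% of all genes were. The peptide transporter gene Tap2 was highest in subclone 19 (9.16) and lowest in subclone 3 (8.13). The immunoproteasome genes Psmb8 and Psmb9 had their lowest means in subclone 19 (5.99 and 5.96). Psmb10, another gene of that complex, was highest in subclone 24 (9.58) and lowest in subclone 28 (7.81), and Erap1, which trims peptides, likewise (8.65 and 6.53). Nlrc5, the regulator of class I genes, reached 7.47 in both subclone 23 and subclone 18 and was lowest in subclone 24 (5.66). Of 11 NF-kappaB genes, 10 passed the F-test, and Birc3 was lower in subclone 18 by 3.69 log2 units.

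Leukocytes express many of these genes, and their markers were checked. Of 13 measured, 2 passed the F-test, Cd68 and Cd14, against 61.8% of all genes. Cd68 reached 8.94 in subclone 28 and 8.66 in subclone 19, and its lowest mean was 6.14, in subclone 18. The summed intensity of the 13 lay between 1132.54 and 1203.91 on the arrays of subclone 19, between 1243.78 and 1281.55 in subclone 3, where the Gbp genes were lowest, and between 658.53 and 1281.55 over all arrays. Over the 11 markers that did not pass it lay between 339.96 and 402.51 in subclone 19 and between 338.50 and 424.50 over all arrays. Ptprc (CD45), the marker of all leukocytes, stayed between 4.12 and 5.04 and Cd3e of T cells between 4.09 and 4.69, near the floor in every subclone. For a carcinoma line, Krt18 lay between 10.80 and 12.01 and Epcam between 7.02 and 8.07 on all arrays, whereas Cdh1 stayed between 4.11 and 4.81, near the floor. Krt19 was higher in subclone 6 by 1.43 log2 units. In subclone 18, 3 of the 5 epithelial markers were lower and 1 higher, against 21.6% and 21.5% of all genes. Krt8 was lower in subclone 18 by 5.14 log2 units, beside the low Ifitm1 and Isg20 there, and its part in those values was not tested. Of 8 endothelial and fibroblast markers, 5 did not pass the F-test. The other 3 passed it and spanned more than 1 log2 unit, against 12.7% of all genes. Dcn differed by -2.26 in subclone 19, where the Gbp genes were highest, and by -1.83 in subclone 18. Pdgfrb was higher in subclone 18 by 3.47, and Pdgfra was highest in subclone 28, by 1.25, and lowest in subclone 18, by -1.03. The part of these markers in the members' values was not tested.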

How the data were processed

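Total RNA of 8 LLC subclones was hybridised to 23 Affymetrix arrays, after Trizol extraction, column purification and biotin labelling of cRNA per the labels' protocols. The authors deposited linear intensities, 1 value per probe set (45101) and array, from 0.61 to 17068.52. For the summary algorithm and the scaling, the method is not given in the sources used here. Array medians lay between 40.83 and 45.74, array means between 412 and 441.1, and no pair of arrays held identical values (0). The value 1 occurred 15024 times. For arrays, their number limits the precision. No dates or batches are given in the labels.

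The 64 control probe sets were dropped. The annotation paired 34945 probe sets with 1 gene symbol and 932 with several, and did not list 9160, and symbols were updated for 34741 through RefSeq (GRCm38.p6). Of 18193 genes, 9010 had over 1 probe set and the one of highest mean log2(intensity + 16) was used. limma 3.58.1 in R 4.3.3 (lmFit, eBayes, 15 residual degrees of freedom) fitted 8 subclone means to all genes. The tests were a moderated F-test, a contrast of each subclone with the mean of the other 7, and the 28 pairs, each adjusted over all genes. The contrasts share arrays. The script was tested on simulated data. Promoter windows were the 170 bases before each start in the RefSeq table, which listed 28 of the members and more than 1 start for 5.

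The members and the pathway lists were chosen with earlier results of these data known. All Gbp, Ifit, Oas and Isg genes are named, then members that passed the F-test and spanned 1 log2 unit or more, the rest by range, and pathway genes by the same bar or for their place in the pathway. Replicate numbers did not pair the arrays. Deviations of same-numbered arrays of different subclones had a mean correlation of -0.0043 over 77 pairs (-0.37 to 0.27), and those of different numbers 0.0023 over 154. Alternatives were pseudocounts of 1 and 64, a filter on means under 5.3, the mean of all probe sets of a gene, quantile normalization, an intensity trend in the prior variance, the replicate block, all other arrays as 1 group in the contrasts, leaving out each array or subclone, and, added after seeing the data, contrasts with the 6 subclones other than 19.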

Additional observations from a re-analysis of the deposited data

How the results depend on the processing

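In all, 235 counts and gaps were recomputed with all arrays, without a whole subclone or with subclone 19 out of the comparison. Of these, 202 stayed within 1.5 times or 1 SD of the reported value and 31 moved. A further 2, gaps larger than their SD, turned in sign. The turns in sign of the subclone 23 gap given below are counted among the moved, since that gap was smaller than its SD. With a pseudocount of 1, the gap between the Gbp and the Ifit, Oas and Isg genes was -1.20, -0.82, 0.45, 2.39, 0.10 and -0.25 in subclones 3, 6, 18, 19, 23 and 24. With 64 it was -0.25, -0.51, -0.40, 0.24, 1.22, -0.078, -0.038 and -0.19 in subclones 2, 3, 6, 18, 19, 23, 24 and 28. With the filter on low values it was -0.47, -1.02, 0.56, 1.63, 0.13 and -0.0014 in subclones 2, 3, 18, 19, 23 and 24, and 4 members in place of 7 were lower in subclone 23. With the mean of all probe sets it was -0.90, -0.49, -0.12 and -0.030 in subclones 3, 6, 23 and 24. With subclone 19 left out of the mean of the others, chosen after seeing the data, it was -0.11, -0.60, -0.34, 0.63, 0.25, 0.16 and 0.0043 in subclones 2, 3, 6, 18, 23, 24 and 28, and 7 members in place of 13 were lower in subclone 28. The sign of the gap in subclones 23, 24 and 28 therefore depended on the setting. Leaving out 1 array at a time, lower members ran from 1 to 4 in subclone 19 and from 4 to 8 in subclone 23, members past the F-test from 29 to 30, and the gap in subclone 19 from 1.82 to 1.90. With the replicate block, which the labels' numbers do not show to be a pairing, 30 members passed the F-test in place of 29 and 15 kept a range of 1 log2 unit. Among single genes, 5 values lost the F-test and 9 gained it. Those lost were Ifit3 (adjusted p = 0.0522 with an intensity trend), also without subclone 2 or 19, Slfn2 without subclone 2 and Ifit1 without subclone 24. Oas1a, Oasl2, Dhx58 and Irf7 passed under at least 1 alternative, with adjusted p from 0.0124 to 0.0429. The causes were not tested. Signals near the floor of 4 limit what can be seen of Gbp3, Gbp8, Usp18, Irf7, Oasl2, Mx2, Ifih1 and Dhx58, and subclone 6 rests on 2 arrays.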
